A study of Mus musculus with 5 samples.

Results

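Integrins are the adhesion receptors with which lymphocytes hold to vessel walls, matrix and other cells, and 10 of their genes were described in sorted regulatory T cells (Tregs): Itgae, Itgav, Itga4, Itga6 and Itgal for alpha chains, and Itgb8, Itgb3, Itgb1, Itgb7 and Itgb2 for beta chains. The genes were chosen by symbol, as the chains most often described on tissue and lymphoid T cells, with earlier results of these data known. All 10 were found among the 49927 gene identifiers of the deposited tables, of which 17427 had a value above 0 in at least 1 library.

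Tregs were sorted from C57BL/6 mice and sequenced as 5 libraries, 1 for each group. The adipose groups were a library labelled Med23 KO, from 10-month-old mice with floxed Med23 alleles and Foxp3Cre (Med23fl/fl;Foxp3Cre), a 10-month Foxp3Cre library, an obese 4-month Foxp3Cre library whose title holds HFD, and a 4-month Foxp3Cre library with no obesity in its labels, called lean here. The 5th library was from lymph node (LN) Tregs of 4-month Foxp3Cre mice. All 5 groups carry Foxp3Cre, which places the Cre recombinase under the gene of the Treg transcription factor Foxp3, so that a floxed gene is deleted in Tregs. The sources used here do not give the sort gate or how many mice were pooled in a library. With 1 library for each group, no difference below could be set against a spread between mice. The 95% interval given after a fold covers counting error only.

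Each integrin is a pair of an alpha and a beta chain, and the pair decides the ligand. The alpha v chain with beta 8 or beta 3 binds matrix proteins and latent TGF-beta, the cytokine that Tregs both make and depend on, and Itgb8 on Tregs is known for activating it. The alpha E beta 7 pair (CD103) binds E-cadherin on epithelium, alpha 4 pairs with beta 1 or beta 7 to bind VCAM-1 or MAdCAM-1 during homing, alpha L with beta 2 (LFA-1) binds ICAM-1, and alpha 6 with beta 1 binds laminin.

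Depth was lowest in the Med23 KO-labelled library, at 4595046 reads, and highest in LN, at 9694474 reads, as recovered from the listed values. Levels are given in CPM, the authors' scaled read count rescaled so that every library has the same sum. Med23 had 15.45 CPM in the Med23 KO-labelled and 6.32 CPM in the 10-month Foxp3Cre library, which goes against the label, and a value for the whole gene cannot tell if its floxed exons are missing. All 13 T cell markers checked were above 0 in every library, but their levels differed. Foxp3 had 155, 185, 180, 216 and 52.5 CPM in the Med23 KO-labelled, 10-month Foxp3Cre, obese, lean and LN libraries. Cd3g had 877, 1147, 1027, 727 and 2787 CPM in that order. In lean adipose against LN, 2 of the 13 were at least 2-fold higher and 6 lower. The shares were 37.6% and 32.1% of the 13541 genes at 1 or more in either library. The libraries also differ in ways the groups do not name. Ddx3y, a Y-linked gene, had 562 and 559.7 CPM in the obese and lean libraries and was listed at 0 in the others, and Gapdh, a glycolysis gene that every cell uses, had 548, 639, 10.7, 1.05 and 979 CPM in the Med23 KO-labelled, 10-month Foxp3Cre, obese, lean and LN libraries. A value at or near 0 in the lean or obese library is therefore given as listed, and its part in each difference was not tested.

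Proximal promoters are shown for Itgav and Itgb7, both higher in all 4 adipose libraries than in LN, and for Itgb1, whose levels spanned 2.01-fold, so that their letters can be read beside the values. Of the members in the promoter set used here, these 3 had a RefSeq start site that coincided with a GENCODE M21 coding transcript start. Each line holds the 250 bases before the start, 5′ to 3′ along the gene, from RefSeq (GRCm38.p6), with every CG dinucleotide in capitals. The windows are chr2:83724147-83724396 on the plus strand for Itgav, chr15:102231936-102232185 on the minus strand for Itgb7 and chr8:128685404-128685653 on the plus strand for Itgb1.
Itgav: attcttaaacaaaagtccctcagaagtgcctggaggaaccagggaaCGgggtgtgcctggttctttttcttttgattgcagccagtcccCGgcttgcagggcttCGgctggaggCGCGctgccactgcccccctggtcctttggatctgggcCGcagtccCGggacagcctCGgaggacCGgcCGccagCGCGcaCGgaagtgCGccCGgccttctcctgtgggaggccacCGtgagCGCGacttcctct
Itgb7: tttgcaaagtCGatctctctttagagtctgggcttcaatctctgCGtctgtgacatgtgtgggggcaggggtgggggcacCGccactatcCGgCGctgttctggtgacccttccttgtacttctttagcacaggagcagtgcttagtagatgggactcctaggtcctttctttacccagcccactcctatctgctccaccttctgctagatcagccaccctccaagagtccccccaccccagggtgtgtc
Itgb1: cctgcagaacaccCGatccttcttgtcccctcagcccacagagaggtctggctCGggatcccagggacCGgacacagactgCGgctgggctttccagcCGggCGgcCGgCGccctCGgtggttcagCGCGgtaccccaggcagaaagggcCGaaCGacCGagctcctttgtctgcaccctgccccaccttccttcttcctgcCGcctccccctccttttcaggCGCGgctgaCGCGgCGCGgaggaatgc
The Itgav window held 18 CG dinucleotides, the Itgb1 window 21 and the Itgb7 window 5, against a median of 6 over 32851 promoters of the same length. Searched on both strands, the Itgb1 window held a GC box (GGGCGG), found in 32.7% of those promoters, and an ETS motif (CAGGAAG), found in 10.8%. The Itgav and Itgb7 windows held neither motif, nor any of the other 3 searched, a CRE (TGACGTCA), a SMAD box (GTCTAGAC) and CCAAT, which were found in 1.55%, 0.167% and 33.8% of promoters. A match describes letters only, and no match says only that these letters are not in these windows. The set of RefSeq promoters used here held 5 of the 10 members.

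Itgav was the integrin chain with the highest level in adipose Tregs. It had 1517 CPM in the library labelled Med23 KO, 1963 in the 10-month Foxp3Cre library, 2166 in the obese library, 2946 in the lean library and 138 in LN. The 4 adipose libraries all lay above LN, and as ratios of CPM they lay closer to each other than to LN. Against LN the level was 10.97-fold higher in the library labelled Med23 KO (10.3 to 11.6), 14.2-fold higher in the 10-month Foxp3Cre library (13.4 to 15.0), 13.9-fold higher in the obese library (13.2 to 14.7) and 19.3-fold higher in the lean library (18.3 to 20.4). Folds against LN are on the listed values for the obese and lean libraries and on CPM for the 10-month libraries, here and below. In CPM the log2 ratios of obese and lean adipose against LN are about 0.17 and 0.14 higher. The folds therefore need not follow the order of the CPM levels. Since the material is bulk RNA, more cells with the message and more message in each cell cannot be told apart, here and below.

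The beta chains Itgb8 and Itgb3, known to pair with alpha v, were also higher in adipose Tregs than in LN, in different degrees. Itgb8, the TGF-beta-activating partner, had 319.9 CPM in the library labelled Med23 KO, 214 in the 10-month Foxp3Cre library, 172 in the obese library, 80.7 in the lean library and 45.3 in LN. It was 7.06-fold higher than in LN in the library labelled Med23 KO (6.35 to 7.88) and 4.73-fold higher in the 10-month Foxp3Cre library (4.27 to 5.26), against 3.37-fold in the obese (3.02 to 3.77) and 1.61-fold in the lean library (1.43 to 1.82). In CPM, the order of Itgb8 across the adipose libraries was the reverse of the order of Itgav. Itgb3, the beta chain of the vitronectin receptor, had 78.8 CPM in the library labelled Med23 KO, 43.9 in the 10-month Foxp3Cre library, 157 in the obese library and 122 in the lean library, and was listed at 0 in LN, where the authors' fold changes stand for no reads. Taking 3 reads in LN as the floor for that library, Itgb3 was at least 255-fold, 142-fold, 452-fold and 357-fold higher in those 4 adipose libraries. The 4-month adipose libraries held more Itgb3 and less Itgb8 than the 10-month ones. Age, sex-linked expression, Gapdh level and table all differ along this split and cannot be told apart.

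Itgae, the alpha chain of CD103, was highest in LN, where Itgav was lowest. It had 89.9 CPM in the library labelled Med23 KO, 26.9 in the 10-month Foxp3Cre library, 31.9 in the obese library, 0 in the lean library and 177 in LN. LN stood highest, the library labelled Med23 KO next, and the lean library at the bottom, with 1 read against 1717 in LN. The 10-month Foxp3Cre and obese libraries did not differ in Itgae beyond counting error. Itgae was 1.97-fold lower than in LN in the library labelled Med23 KO (1.77 to 2.20), 6.57-fold lower in the 10-month Foxp3Cre library (5.77 to 7.52), 6.25-fold lower in the obese library (5.46 to 7.19) and, on that single read, 1669-fold lower in the lean library (299 to 65963). The lean value stands beside the Gapdh value of 1.05 CPM in the same library.

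**Figure D1:**
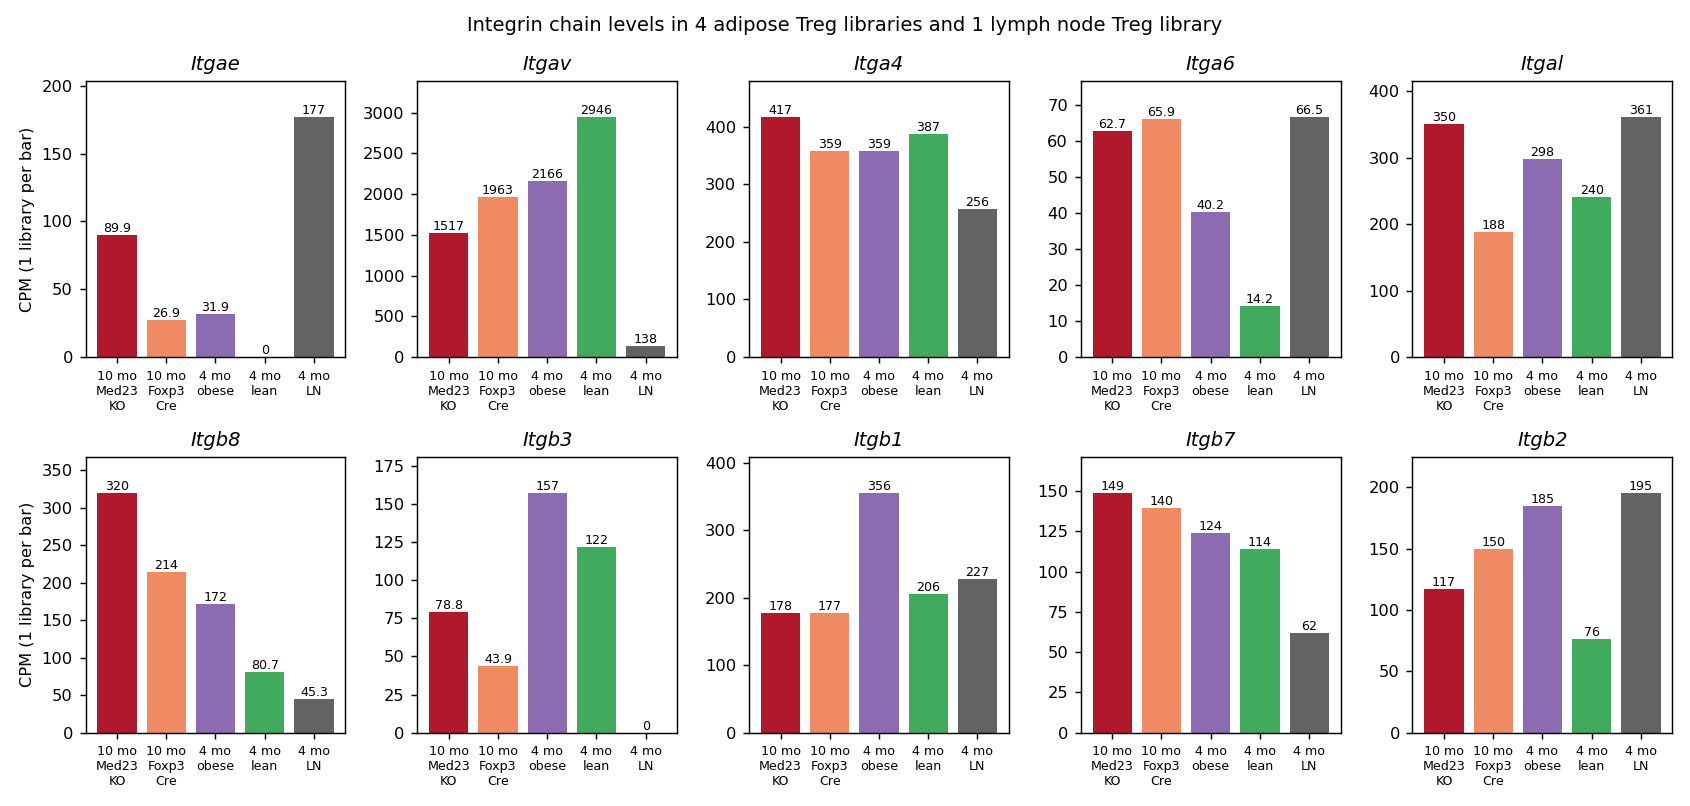
Level of each integrin chain in CPM (vertical axis, separate linear scale from 0 in each panel) in the 5 libraries, 1 bar for each library and alpha chains in the upper row. Itgav lies between 1517 and 2946 CPM in the 4 adipose libraries against 138 in LN, Itgae is highest in LN at 177 CPM, and Itgb3 is listed at 0 in LN.

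The alpha 4 and beta 7 chains, which together form the gut-homing receptor, were moderately higher in adipose Tregs. Itgb7 had 149 CPM in the library labelled Med23 KO, 140 in the 10-month Foxp3Cre library, 124 in the obese library, 114 in the lean library and 62.0 in LN. All 4 adipose libraries lay above LN, and the adipose libraries of the same age did not differ in CPM beyond counting error. Itga4 had 417 CPM in the library labelled Med23 KO, 359 in both the 10-month Foxp3Cre and the obese library, 387 in the lean library and 256 in LN. Its span over the 5 libraries was 1.63-fold, the narrowest of the members with a value above 0 in each. Cerkl, a gene on the strand opposite to Itga4 with overlapping exons, had 7.15 to 52.2 CPM, and no source used here gives the strand setting of the counting.

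The chains of LFA-1 and of the laminin receptor were not higher in adipose Tregs, apart from Itgb1 in the obese library. Itgal had 350 CPM in the library labelled Med23 KO, 188 in the 10-month Foxp3Cre library, 298 in the obese library, 240 in the lean library and 361 in LN. Its partner Itgb2, the beta chain of leukocyte integrins, had 117, 150, 185, 76.0 and 195 CPM in that order. LN was the highest library for both, in CPM level within counting error with the library labelled Med23 KO for Itgal and with the obese library for Itgb2. Itga6, the laminin-binding alpha chain, had 62.7, 65.9, 40.2, 14.2 and 66.5 CPM in the Med23 KO-labelled, 10-month Foxp3Cre, obese, lean and LN libraries. In CPM, LN and both 10-month libraries did not differ in Itga6 beyond counting error, and the lean library was the lowest. Itgb1, the beta chain shared by alpha v, alpha 4 and alpha 6, had 178, 177, 356, 206 and 227 CPM in the same libraries, and the obese library was the highest. The other libraries lay closer together, LN above lean and lean above both 10-month libraries by more than counting error.

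**Figure D2:**
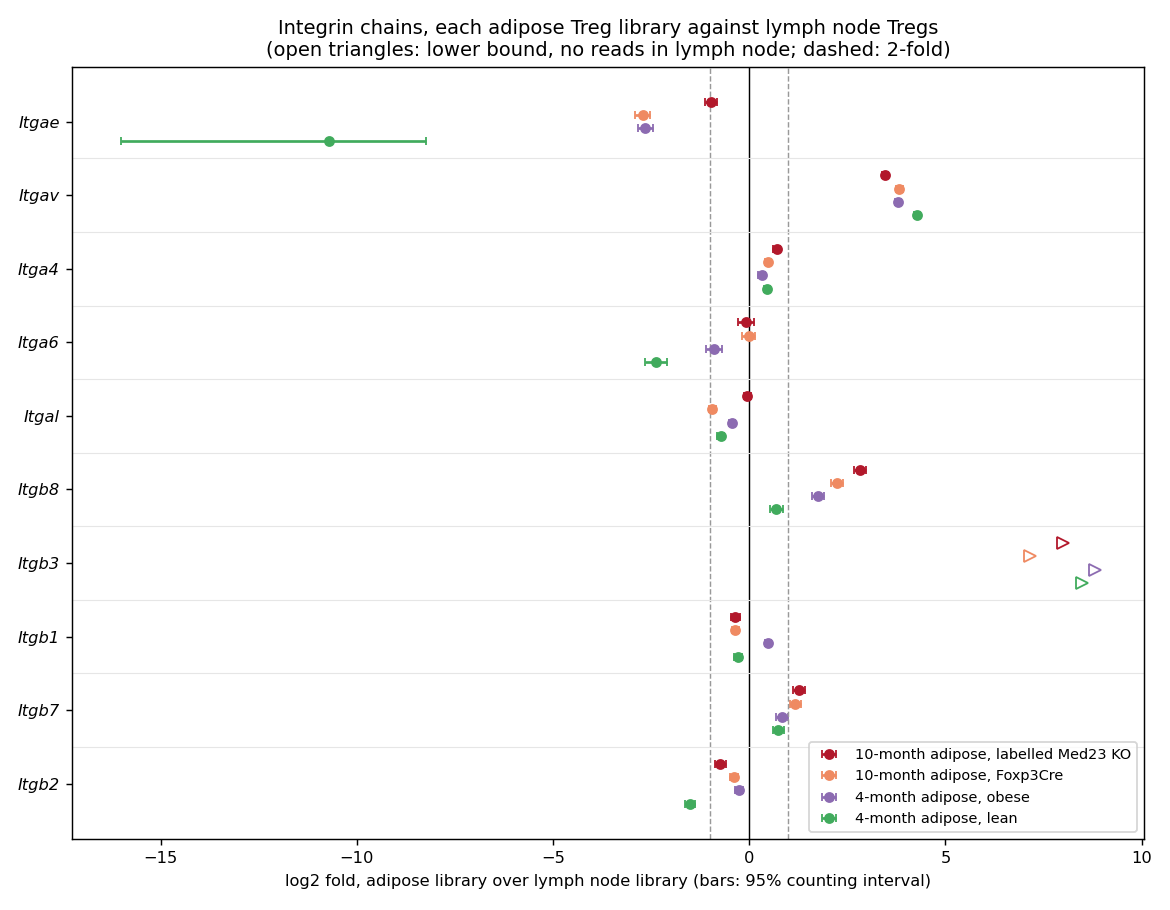
Log2 fold of each integrin chain in each adipose library over LN (horizontal axis), with 95% counting intervals as bars, lower bounds as open triangles and 2-fold as dashed lines, on the listed values for the obese and lean libraries and on CPM for the 10-month libraries. Itgav and Itgb3 lie far to the right in all 4 adipose libraries, Itgae lies to the left, and the other members lie within 3 log2 units of 0.

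Setting the members against all genes, 2-fold differences were common in every comparison. Ratios for these counts are log2((value + 1)/(value + 1)), a gene being measured at 1 or more in either library. In lean adipose against LN, 2 members (Itgav and Itgb3) were at least 2-fold higher and 3 (Itgae, Itga6 and Itgb2) at least 2-fold lower, beside 37.6% and 32.1% of 13541 measured genes. In obese adipose against LN, 3 members (Itgav, Itgb8 and Itgb3) were at least 2-fold higher and 1 (Itgae) lower, beside 41.8% and 23.7% of 14713. For the genes that reached 20 in at least 1 of both libraries, as all 10 members did, these shares were 30.9% and 28.8% for lean and 27.3% and 26.0% for obese adipose. The members' median log2 ratio was 0.08 in lean and 0.39 in obese adipose, against 0.14 and 0.44 over all measured genes. The share of members past 2-fold thus lay near or below the background, and Itgav and Itgb3 were the members with the highest ratios.

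At 10 months the question was what loss of Med23 does to adipose Tregs, and it rests on the label discussed above. Of the 10 members, 1 (Itgae) was at least 2-fold higher in the library labelled Med23 KO than in the 10-month Foxp3Cre library and 0 were at least 2-fold lower, beside 28.6% and 34.9% of all measured genes and 22.3% and 26.9% of those at 20 or more. Itgae was 2.70-fold higher on the listed values (2.31 to 3.17). Itgal was 1.51-fold (1.41 to 1.61) and Itgb3 1.45-fold higher (1.26 to 1.67), and Itgb8 1.21-fold higher (1.13 to 1.29). Itgav was 1.60-fold lower (1.55 to 1.64) and Itgb2 1.57-fold lower (1.42 to 1.74). The median log2 ratio was -0.15 for the members and -0.15 for all measured genes. In CPM the log2 ratios of this comparison are about 0.30 higher, which turns the small differences of Itga4, Itgb1 and Itgb7 from lower to level or higher.

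The remaining comparisons set adipose libraries against each other or the 10-month libraries against LN, in CPM across tables. In obese against lean adipose, 4 members (Itgae, Itga6, Itgb2 and Itgb8) were at least 2-fold higher and 0 lower, beside 34.0% and 18.6% of measured genes and 17.4% and 15.0% of those at 20 or more. Itga6 was 2.83-fold higher (2.29 to 3.53), Itgb2 2.43-fold (2.21 to 2.67) and Itgb8 2.13-fold (1.94 to 2.34), while Itgav was 1.36-fold lower (1.33 to 1.39). In 10-month Foxp3Cre against lean adipose, 3 members (Itgae, Itga6 and Itgb8) were at least 2-fold higher and 1 (Itgb3) lower, beside 28.5% and 32.7% of measured genes and 17.9% and 26.8% of those at 20 or more. Itga6 was 4.65-fold higher (3.82 to 5.70), Itgb8 2.66-fold higher (2.44 to 2.90) and Itgb3 2.77-fold lower (2.48 to 3.11). Between the 10-month Foxp3Cre and the lean library, age, sex-linked expression, Gapdh level and table all differ and cannot be told apart.

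In 10-month Foxp3Cre adipose against LN, 4 members (Itgav, Itgb8, Itgb3 and Itgb7) were at least 2-fold higher and 1 (Itgae) lower, beside 34.3% and 29.8% of measured genes and 25.9% and 27.0% of those at 20 or more. The library labelled Med23 KO against LN had the same 4 members at least 2-fold higher and 0 lower, beside 39.9% and 33.4% of measured genes and 37.0% and 27.6% of those at 20 or more. Itgb7 was 2.26-fold higher in the 10-month Foxp3Cre library (2.05 to 2.49) and 2.40-fold higher in the library labelled Med23 KO (2.15 to 2.69). Itgav, Itgb8 and Itgb3 were thus at least 2-fold above LN in the 3 adipose libraries other than the lean one, and Itgav and Itgb3 in the lean one as well. These comparisons all share the 1 LN library, which was from 4-month mice. For both 10-month libraries, tissue, age and table thus differ from LN together and cannot be told apart. For the lean and obese libraries, tissue, sex-linked expression and Gapdh level differ from LN together and cannot be told apart either. The obese library differs from LN in the HFD of its title as well.

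Per kilobase of exon, Itgav dominated the alpha chain messages of adipose Tregs. It made up 54.7% of the summed alpha chain level in the library labelled Med23 KO, 71.9% in the 10-month Foxp3Cre library, 66.5% in the obese library, 76.7% in the lean library and 9.66% in LN. In LN the largest alpha chain shares were those of Itgal at 41.3% and Itgae at 29.0%. The summed alpha chain level was 258, 254, 303 and 357 CPM per kb in those 4 adipose libraries and 133 in LN, whereas the summed beta chain level was 178, 170 and 235 in the first 3, 145 in the lean library and 146 in LN. The 10 members together held 96.5% to 99.6% of the level of all 26 integrin chains listed, so that the choice of members left little out.

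Among beta chains the makeup was mixed in every library. Itgb8 made up 16.2% of the beta chain level in the library labelled Med23 KO, 11.4% in the 10-month Foxp3Cre library, 6.62% in the obese library, 5.05% in the lean library and 2.80% in LN. Itgb2, with 43.8%, was the most abundant beta chain message in LN, against 17.2% to 28.7% in the adipose libraries. The ratio of Itgb8 to Itgb3 per kb was 2.17 and 2.60 in the Med23 KO-labelled and Foxp3Cre libraries at 10 months, and 0.583 and 0.353 in the obese and lean libraries at 4 months. Here too age, sex-linked expression, Gapdh level and table differ together and cannot be told apart. Itgav exceeded the sum of its possible beta partners (Itgb1, Itgb3, Itgb5, Itgb6 and Itgb8) by 1.65, 2.57, 1.56 and 3.50 times in the Med23 KO-labelled, 10-month Foxp3Cre, obese and lean libraries, and was 0.215 of that sum in LN. Itgae was 1.73 times its partner Itgb7 in LN but 0.365, 0.116, 0.155 and 0 of it in the 4 adipose libraries in the same order. Messages give no account of the pairs on the cell surface.

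**Figure D3:**
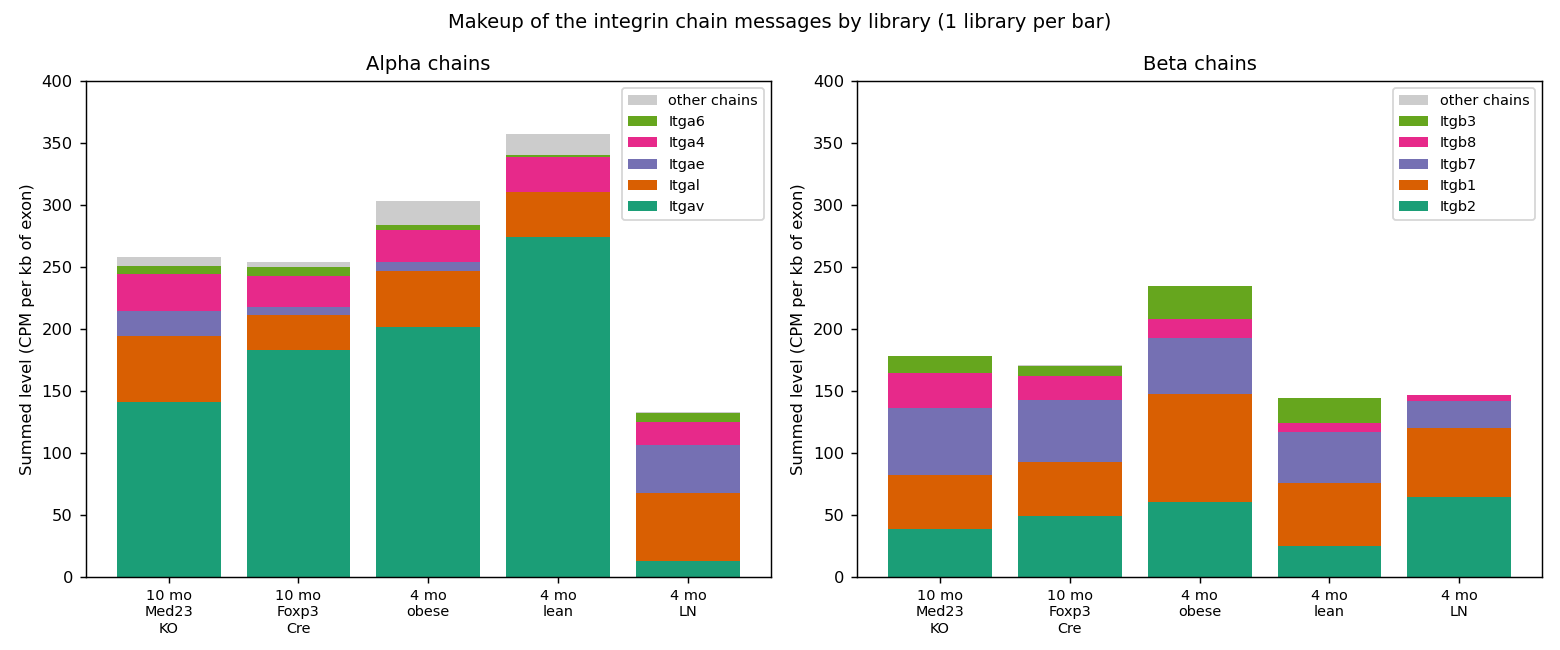
Summed level of integrin alpha chains (left) and beta chains (right) in CPM per kb of exon (vertical axis, from 0), split by chain, for the 5 libraries. Itgav fills 54.7% to 76.7% of the alpha bars of the adipose libraries and 9.66% of the LN bar, while the beta bars are mixed in all 5.

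Markers of other cell types differed between the libraries along with some members. The summed level of 19 macrophage and dendritic cell markers was 136 CPM in the library labelled Med23 KO (9 markers above 0), 712 in the 10-month Foxp3Cre library (12 above 0), 6162 in the obese library (19 above 0), 1130 in the lean library (15 above 0) and 35.3 in LN (3 above 0). Of the markers in the library labelled Med23 KO, Lyz2 had 53.3 CPM, C1qb 25.0, Cd14 17.6, Xcr1 11.97 and Fcer1g 10.4, the other 4 above 0 had 2.39 to 6.75, and Csf1r, Cd68, Mrc1, C1qa, Itgam, Fcgr1, Mertk, Cd163, Msr1 and Tyrobp were listed at 0. That library, with the lowest marker sum of the adipose libraries, also had their lowest Itgav level and the highest Itgb8 level, and the part of macrophages in these levels was not tested. Itgb3 and Itgb1 were both highest in the obese library, the library with the most macrophage signal, and the part of those cells in their levels was not tested. Platelets also carry Itgb3, and the 12 platelet and megakaryocyte markers summed to 18.1, 3.52, 973, 308 and 0 CPM in the Med23 KO-labelled, 10-month Foxp3Cre, obese, lean and LN libraries. Nearly all of the obese and lean sums was 1 gene, Pf4, with 971 and 296 CPM, and the defining platelet genes Gp9, Ppbp and Gp6 were listed at 0 in all 5 libraries. The 12 fibroblast and mesothelial markers summed to 1048 CPM in the lean library, against 73.6 to 232 in the others, but Thy1, which mouse T cells also express, had 128, 49.6, 59.0, 63.2 and 224 CPM of these sums in the Med23 KO-labelled, 10-month Foxp3Cre, obese, lean and LN libraries. Dcn, a fibroblast proteoglycan, had 0, 48.0, 8.27, 791 and 0 CPM in that order. Gm13684, a transcript on the strand opposite to Itgav with overlapping exons, had 46.1, 178, 337, 262 and 0 CPM in the same order as the platelet markers.

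**Figure D4:**
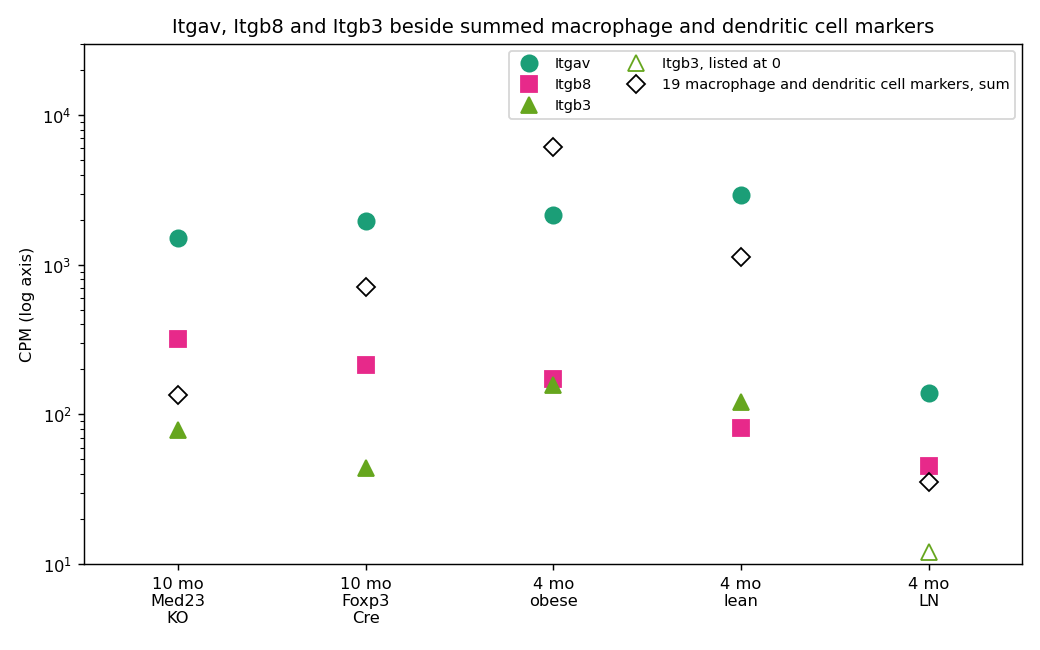
Level of Itgav, Itgb8 and Itgb3 beside the summed level of 19 macrophage and dendritic cell markers, in CPM on a log axis, for the 5 libraries, with the open triangle for a gene listed at 0. The marker sum spans 136 to 6162 CPM over the adipose libraries, while Itgav stays between 1517 and 2946 CPM.

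Genes of TGF-beta activation and response were examined because alpha v beta 8 acts on that pathway. Of 22 such genes, 17 were measured in lean adipose against LN, of which 9 were at least 2-fold higher and 2 lower, beside 37.6% and 32.1% of all measured genes. The counts were 9 and 3 of 18 in obese adipose, beside 41.8% and 23.7%. In the 10-month Foxp3Cre library against LN they were 9 and 2 of 17, beside 34.3% and 29.8%. In the library labelled Med23 KO against the 10-month Foxp3Cre library they were 2 and 4 of 16, shares below the 28.6% and 34.9% of all measured genes. Lrrc32, which encodes GARP, the Treg protein that holds latent TGF-beta at the surface, had 366 CPM in the library labelled Med23 KO, 84.3 in the 10-month Foxp3Cre library, 156 in the obese library, 66.9 in the lean library and 31.2 in LN. Lrrc32, like Itgb8, was highest in the library labelled Med23 KO and lowest in LN. Tgfb1 itself had 55.7, 48.5, 19.5, 33.3 and 8.36 CPM in the same order. Smad7, an inhibitor that TGF-beta induces, was 3.28-fold and Lrrc32 3.52-fold higher in the library labelled Med23 KO than in the 10-month Foxp3Cre library, whereas Furin, a protease that processes TGF-beta, was 4.43-fold lower. Furin had 30.3 scaled counts there against 134 in the 10-month Foxp3Cre library. Skil and Ski, from the same list, were 1.80-fold and 1.99-fold lower in that comparison, and Smad3 was 1.04-fold higher.

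Among the 16 other integrin chains, 8 were measured in lean adipose against LN and 7 of these were at least 2-fold higher, beside 37.6% of all measured genes, but none passed 32.6 CPM in the lean library. Itga1, a collagen-binding chain, had 32.6 CPM there and was listed at 0 in LN. Itga5, the fibronectin-binding partner of beta 1, had 54.0 CPM in the obese library, 24.7 in the lean library and 7.67 in the 10-month Foxp3Cre library, and was listed at 0 in LN and in the library labelled Med23 KO. Itgam and Itgax, chains known from myeloid cells, were at 13.2 and 6.27 CPM in the obese library, the one with the most macrophage signal. Both are themselves among the markers summed for that signal. In the library labelled Med23 KO, Itgam was listed at 0 and Itgax had 3.26 CPM. Itgad, another of the 16 chains, had 15.5 CPM there against 1.20 in the obese library.

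Ligands and intracellular partners of integrins were examined in the same way. Of 16 ligand genes, 12 were measured in lean adipose against LN and 10 were at least 2-fold higher, with 0 lower, beside 37.6% and 32.1% of all measured genes. Icam1, the ligand of LFA-1, had 165 scaled counts in the lean library and was listed at 0 in LN, and Fn1 (fibronectin) had 75.7 and 0. In CPM, Icam1 had 95.8, 138, 88.7 and 174 in the Med23 KO-labelled, 10-month Foxp3Cre, obese and lean libraries. Fn1 had 31.6, 24.7, 36.4 and 79.6 CPM in that order. The lean values stand beside the higher fibroblast and macrophage markers of the lean library, and the part of those cells was not tested. Of 30 activation and adaptor genes, 25 were measured, 8 being at least 2-fold higher and 6 lower in lean adipose than in LN, shares below those same 37.6% and 32.1%. Fermt3 (kindlin-3), which binds beta chain tails, was 1.89-fold higher and Tln1 (talin), which switches integrins on, was 1.14-fold lower. Rasgrp2, an activator of the GTPase Rap1, was listed at 0 in the lean library against 45.2 scaled counts in LN, and was 4.89-fold higher in the library labelled Med23 KO than in the 10-month Foxp3Cre library.

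Other adhesion and homing receptors set the frame for these differences. Of 13 such genes with an identifier, all were measured in lean adipose against LN, with 3 at least 2-fold higher and 5 lower, beside the same shares. Cxcr3, a chemokine receptor of effector T cells, was 3.79-fold lower in lean adipose. In the library labelled Med23 KO, 7 of 12 measured genes were at least 2-fold lower than in the 10-month Foxp3Cre library and 1 was higher, beside 34.9% and 28.6% of all measured genes. Cd44, a hyaluronan receptor, was 4.18-fold lower and Cd69, a tissue retention molecule, 6.96-fold lower, while Itgae, which is often described with Cd69 on tissue-resident T cells, was 2.70-fold higher.

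Genes whose profile over the 5 libraries was most like that of a member were found by the mean absolute difference of centred log2(CPM + 1) values, among 10886 genes. Mlycd, Lrp10 and Noct were nearest to Itgb8, at 0.10 to 0.11, and Noct had 393, 243, 245, 108 and 65.2 CPM in the Med23 KO-labelled, 10-month Foxp3Cre, obese, lean and LN libraries. Rad54l, Tmem167b and Ercc4 were nearest to Itgav, at 0.11 to 0.15, but at 8.49 to 22.7 CPM in adipose libraries and 0 in LN. Zfp292, Impact and Rnf145 were nearest to Itgb1, at 0.085 to 0.11. The nearest to Itgae were Adi1, Hax1 and Immp2l, at 0.40 to 0.55, and all 3 were listed at 0 in the lean library. With 5 libraries such likeness is a description only.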

How the data were processed

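Messenger RNA of sorted Tregs was sequenced in 5 libraries, 1 per group. Per the labels' protocols, an Illumina TruSeq kit and 3 ug of total RNA were used for each library, and Bowtie2 2.0.6, TopHat2 2.0.9 and the mm8 build are named in the submitters' processing notes. No source used here gives the read counter, annotation, strand setting or scaling. The authors deposited 3 tables with a scaled read count (a signal) per gene in 2 libraries each, a log2 fold change, and p-value and q-value columns that compare 2 libraries and were not used. From the values, each is a whole multiple of 1 step per library, and values under 1 are listed as 0. Reads listed at 0 were read back from the authors' log2 fold change, and no count model was fitted, though the design had allowed for counts.

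Symbols came from GENCODE M21 on GRCm38, whose exon lengths (not those of the authors' build) gave levels per kb, and promoters from RefSeq. Values were compared within a table as listed and across tables as CPM. A gene was measured at 1 or more in either library, and the size threshold was 2-fold on log2((value + 1)/(value + 1)), which understates ratios of low genes. Intervals are exact Clopper-Pearson intervals at 95%, conditional on the summed reads, and cover counting error only, since PCR copies were not marked by molecular identifiers. Without replicates there is no test, and no p-value is printed. The members, the gene lists and the alternatives were chosen with earlier results of these data known. Named genes were the 10 members and, of each list, the 4 with the largest ratios in lean adipose against LN and at 10 months. Tgfb1, Lrrc32, Cdh1, Icam1, Vcam1, Fn1, Tln1, Fermt3, Rap1b and Foxp3 were added to these. Not all of the named genes are printed. One gene that this rule names is not reported here. Other genes named for their values were chosen after those were seen. Calculations used Python 3.11.15, pandas 2.3.3, scipy 1.17.1, numpy 2.4.6 and, for figures, matplotlib 3.10.9, and were tested on simulated data.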

Additional observations from a re-analysis of the deposited data

How the results depend on the processing

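No paired analysis was possible because each group has 1 library, and for the same reason no replicate could be left out. Of 570 recomputed member ratios, 8 (of 6 member differences) came to lie on the other side of 2-fold and 0 called ratios turned direction. With a 1.5-fold threshold the members higher numbered 4 in lean adipose against LN and 2 in the library labelled Med23 KO against 10-month Foxp3Cre, where those lower numbered 2. At that threshold 2 members were lower in each of obese adipose against LN, 10-month Foxp3Cre against LN, 10-month Foxp3Cre against lean adipose, and the library labelled Med23 KO against LN. With ratios centred on the median of measured genes, 2 members were lower in obese adipose against LN (Itga6 joined) and 2 in 10-month Foxp3Cre against LN (Itgal joined). In the library labelled Med23 KO against LN, a comparison added after the data were seen, 1 member (Itgae) was lower after centring and on the values as deposited. On coding transcript lengths Itgav made up 58.0%, 73.6%, 69.7% and 79.1% of alpha chain level in the Med23 KO-labelled, 10-month Foxp3Cre, obese and lean libraries. Genes near the listing limit are not resolved at this depth.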
